A study of Mus musculus with 15 samples.

Results

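The genes described are Scg5 and its relatives of the neuroendocrine secretory granule, in brain RNA of mice from the O377 line and of wild-type mice. They were chosen by symbol. The rule named 9 genes, Scg5, Pcsk1n, Chga, Chgb, Scg2, Scg3, Pcsk1, Pcsk2 and Cpe, and kept a probe measured on 4 or more arrays with mutant RNA in Cy5 and on 4 or more with it in Cy3. Of these genes, 6 had a probe with 1 gene symbol and 5 were kept: Scg5, Pcsk1n, Chga, Scg3 and Cpe, each with 1 probe, among 8058 tested probes for 4372 genes. The probes of Chga, with 10 array values, and Chgb, with 1, were the nearest inside and outside that rule. Scg5 was placed first because of its measured difference between dye orientations. That difference is therefore given as a description without a test.

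The series asked about a mutant allele of Crybb2, a gene for a lens crystallin, and its expression in the brain. There were 15 arrays with 2 colours. On each, 1 channel held RNA pooled from 4 wild-type brains and the other was labelled as RNA of 5 brains of homozygous O377 mutants. The mutant RNA was in Cy5 on 7 arrays and in Cy3 on 8 arrays. The labels used here give neither strain, age nor sex. They do not say whether the 5 mutant brains were pooled or, if not, which brain was on which array. All name 1 wild-type pool. The spread among arrays is therefore not the spread among animals, and variation among wild-type brains does not enter. Arrays are numbered 1 to 15 in accession order. Between 7843 and 10515 probes had a value per array. Interquartile ranges of the log ratios ran from 0.386 to 0.892, widest on array 10.

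Neurons and endocrine cells store peptides in dense-core granules. Granins such as chromogranin A help granules form and bind calcium in them, prohormone convertases cut precursor proteins at pairs of basic residues, and carboxypeptidase E trims the ends that remain. The convertase PC2 matures only with the help of 7B2, the small chaperone encoded by Scg5, which is found in neurons and endocrine cells. ProSAAS, encoded by Pcsk1n, is an inhibitor of the related convertase PC1/3.

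The deposited values are log ratios (log2 is assumed), and the labels do not say which way they run. Each probe was split into a dye-switching component and a shared component. The dye-switching component is the mean with mutant RNA in Cy5 minus the mean with it in Cy3, divided by 2. Where the ratio is Cy5 over Cy3 it measures genotype, with positive values for RNA that is higher in mutant brains. Where the ratio is mutant over wild type it measures the dye effect of the probe. The shared component is the mean of both orientation means, and its reading is the reverse. Both readings are given, since nothing in the labels settles between them. In whole brain RNA, fewer cells of a type and less RNA per cell cannot be told apart.

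The Scg5 promoter is shown because this gene leads the set, and that of Chga because it is the other measured member whose window holds the core of the cAMP response element, TGACGT. The windows are the 250 bases before the annotated start, from RefSeq on GRCm38.p6, on the minus strand at chr2:113829092-113829341 for Scg5 and the plus strand at chr12:102554691-102554940 for Chga. Capitals mark TGACGT on either strand.
Scg5: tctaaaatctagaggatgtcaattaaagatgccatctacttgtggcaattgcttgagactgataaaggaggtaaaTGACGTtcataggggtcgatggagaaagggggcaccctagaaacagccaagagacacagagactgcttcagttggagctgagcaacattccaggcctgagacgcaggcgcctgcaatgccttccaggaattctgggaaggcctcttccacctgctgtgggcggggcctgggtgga
Chga: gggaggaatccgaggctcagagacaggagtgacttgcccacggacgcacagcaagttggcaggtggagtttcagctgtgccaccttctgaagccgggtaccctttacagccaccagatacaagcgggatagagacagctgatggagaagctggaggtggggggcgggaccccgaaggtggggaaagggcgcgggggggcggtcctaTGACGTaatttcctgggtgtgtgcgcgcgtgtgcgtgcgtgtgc

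The TGACGT core began 175 bases before the start in Scg5 and 44 bases before it in Chga. Of the 9 genes, 8 had a promoter entry, and 5 of these windows held TGACGT on either strand: Scg5, Chga, Chgb, Scg2 and Pcsk1. Of all 32851 windows of this length, 6.47% held it. The full palindrome TGACGTCA, which contains the core on both strands, was in 3 of the 8, Chgb, Scg2 and Pcsk1, and in 1.55% of all windows. The sequence TGACGTGG, a binding motif of the stress factor XBP1, was in 0 of the 8 and in 0.563% of all windows. The TATA motif TATAAA was likewise in 0 of the 8, against 12.4% of all windows. These matches describe letters only.

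Scg5 turned with the dyes on every array. With mutant RNA in Cy5 its log ratios were -0.54, -0.31, -1.32, -0.93, -1.01, -0.39 and -1.04 on arrays 1, 2, 5, 6, 9, 10 and 13. With mutant RNA in Cy3 they were 0.51, 0.55, 1.49, 1.53, 1.47, 0.93, 1.16 and 1.19 on arrays 3, 4, 7, 8, 11, 12, 14 and 15. All 7 of the first set lay below 0 and all 8 of the second above 0, so the orientations did not overlap. Such a gap between orientations was found for 73 of 8058 tested probes, or 0.906%.

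**Figure D1:**
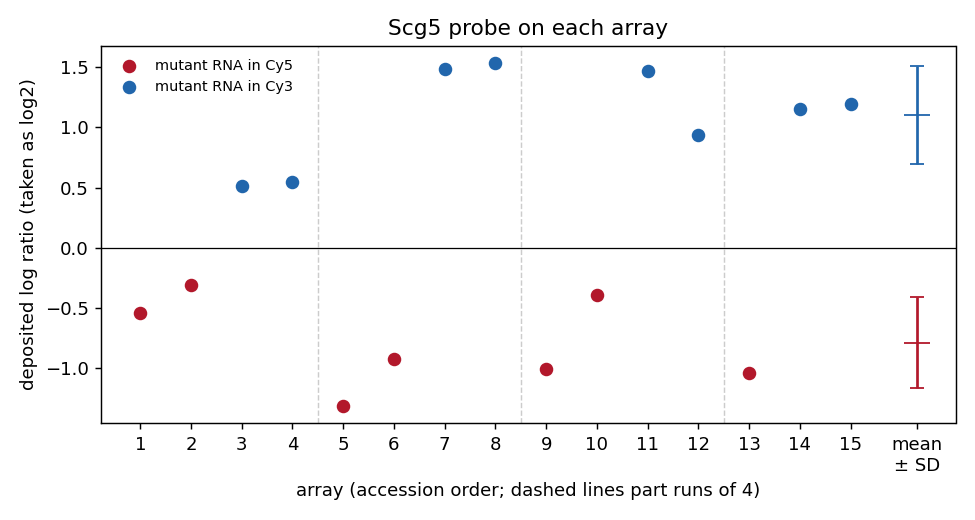
The log ratio of the Scg5 probe is plotted for each of the 15 arrays in accession order, with arrays carrying mutant RNA in Cy5 in red and in Cy3 in blue, and the mean ± SD of each orientation at the right. Red points lie between -1.32 and -0.31 and blue points between 0.51 and 1.53, with the smallest blue values on arrays 3 and 4.

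The mean of Scg5 was -0.79 ± 0.38 (SD, n = 7 arrays) with mutant RNA in Cy5 and 1.10 ± 0.41 (SD, n = 8 arrays) with it in Cy3. Its dye-switching component was -0.95 ± 0.10 (SE, n = 15 arrays). The SE was 0.41 with a variance trend and robust eBayes, which left the component itself at -0.95. That trend followed the mean size of the log ratio, which is itself large at probes with a large component. In size the Scg5 component was rank 12 of the 8058 tested probes, and rank 2 on the negative side. Read as Cy5 over Cy3, Scg5 RNA was 1.93-fold lower in the mutant brains. Read as mutant over wild type, the same value is a dye effect. In the limma fit 0.645% of tested probes passed an adjusted p of 0.05 in the dye-switching component; Scg5 was among them, and nothing is read from that, since this contrast chose it.

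Within an array, Scg5 was often near the edge of all measured probes. With mutant RNA in Cy3 its value stood between the percentiles 92.0 and 99.1 of the array. With mutant RNA in Cy5 it stood between the percentiles 2.63 and 26.6, and the least extreme of these was on array 10. On array 10 the Scg5 value was -0.39, and 55.4% of the probes of that array had a larger log ratio in size.

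The shared component of Scg5, a contrast that did not choose it, was 0.16 ± 0.10 (SE, n = 15 arrays). Its 95% confidence interval ran from -0.05 to 0.37, which as a ratio is 0.965 to 1.29, and its adjusted p by limma was 0.614. With the same variance trend on the size of the log ratio and robust eBayes, the SE was 0.41 and the limma adjusted p 0.910. These limits therefore hold for the plain variance model. Under the reading mutant over wild type, this is the genotype difference of Scg5, and it did not pass the threshold.

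The size of the Scg5 value was not even over the arrays. The dye-switching component within arrays 1 to 4 was -0.48, that within arrays 5 to 8 was -1.32, that within arrays 9 to 12 was -0.95, and that within arrays 13 to 15 was -1.11. The sign was the same in all 4 runs, while the value in arrays 1 to 4 was the smallest in size. These runs are positions in accession order, not batches that the labels name. Among the other 51 probes past the threshold, 48 had a value in every run, and 17 of them were also smallest in size in arrays 1 to 4, 16 in arrays 5 to 8, 5 in arrays 9 to 12 and 10 in arrays 13 to 15. Their median size was 0.37 in arrays 1 to 4 and 0.45, 0.50 and 0.49 in the later runs. Without arrays 1 to 4, a choice made after the values were seen, the Scg5 component was -1.12.

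Pcsk1n, whose product proSAAS inhibits PC1/3, showed no difference past the threshold. Its log ratios had a lowest value of -0.62, a median of -0.22 and a highest of 1.09 on the 7 arrays with mutant RNA in Cy5. On the 8 arrays with mutant RNA in Cy3 these were -0.49, 0.17 and 0.71. The orientations overlapped, and 12 of 15 arrays lay on the same turned side as Scg5, the exceptions being arrays 9, 10 and 11. The astrocyte gene Aldh1l1 also had 12 of 15 arrays on that side, at a limma adjusted p of 0.819. Nothing is read from such a count. The dye-switching component of Pcsk1n was -0.12 ± 0.11 (SE, n = 15 arrays; 95% confidence interval from -0.36 to 0.11), with a limma adjusted p of 0.779.

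The Pcsk1n value moved with array 10, which held its highest log ratio and had the widest spread of all probes. Without array 10 the component was -0.22 (limma adjusted p = 0.419), and without arrays 9 and 10 it was -0.26 ± 0.08 (SE; adjusted p = 0.243). Its value within arrays 9 to 12 was 0.41, against -0.21, -0.26 and -0.58 in arrays 1 to 4, 5 to 8 and 13 to 15. With robust regression the adjusted p was 0.0513, and over all 28 alternatives it ran from 0.0513 to 0.865, with a negative component in all 28. The shared component of Pcsk1n was 0.05 ± 0.11 (SE), adjusted p = 0.904.

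Chga encodes chromogranin A, the granin best known as a marker of neuroendocrine cells. On the arrays with mutant RNA in Cy5 its values were 0.23, 0.24, 0.38, 0.21 and -0.22 on arrays 1, 2, 5, 6 and 9. With mutant RNA in Cy3 they were -0.06, -0.03, 0.16, 0.18 and 0.24 on arrays 3, 4, 7, 14 and 15. The groups overlapped, and 7 of 10 values lay above 0 whatever the dye. The dye-switching component was 0.04 ± 0.07 (SE, n = 10 arrays; 95% confidence interval from -0.13 to 0.20; limma adjusted p = 0.913). The shared component was 0.13 ± 0.07 (SE), with an adjusted p of 0.575.

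Scg3 encodes secretogranin III, a granin that binds chromogranin A and the granule membrane. Its values with mutant RNA in Cy5 had a lowest of -1.09 on array 13, a median of -0.13 and a highest of 0.50 on array 5 (6 arrays). With mutant RNA in Cy3 they lay closer together, at -0.34, -0.02 and 0.34 (8 arrays). The orientations overlapped. Both components of Scg3 were close in size, -0.11 ± 0.10 (SE, n = 14 arrays) dye-switching with a limma adjusted p of 0.783, and -0.11 ± 0.10 shared with an adjusted p of 0.731. Within arrays 13 to 15 the dye-switching component was -0.54, with 1 array in Cy5 there, while it was -0.15, 0.23 and 0.00 in the earlier runs. Without array 13 both components of Scg3 were -0.02 ± 0.08 (SE).

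Chgb, the gene of chromogranin B, had a value on array 10 alone, -1.48 with mutant RNA in Cy5, and was not tested. Spots had been filtered before deposit, so a missing value cannot be told from a dim spot. Scg2, Pcsk1 and Pcsk2 had no probe with 1 symbol. PC2, the partner of the Scg5 protein, was therefore not analysed here.

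Cpe, the gene of carboxypeptidase E, was the most precisely measured of the 5. Its values ran from -0.04 to 0.38 with a median of 0.03 on the 7 arrays with mutant RNA in Cy5, and from -0.31 to 0.58 with a median of -0.03 on the 8 arrays with it in Cy3. The range with mutant RNA in Cy5 lay within the wider range with it in Cy3. The dye-switching component was 0.03 ± 0.07 (SE, n = 15 arrays; 95% confidence interval from -0.10 to 0.17), limma adjusted p = 0.900. Its shared component was 0.08 ± 0.07, adjusted p = 0.714.

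**Figure D2:**
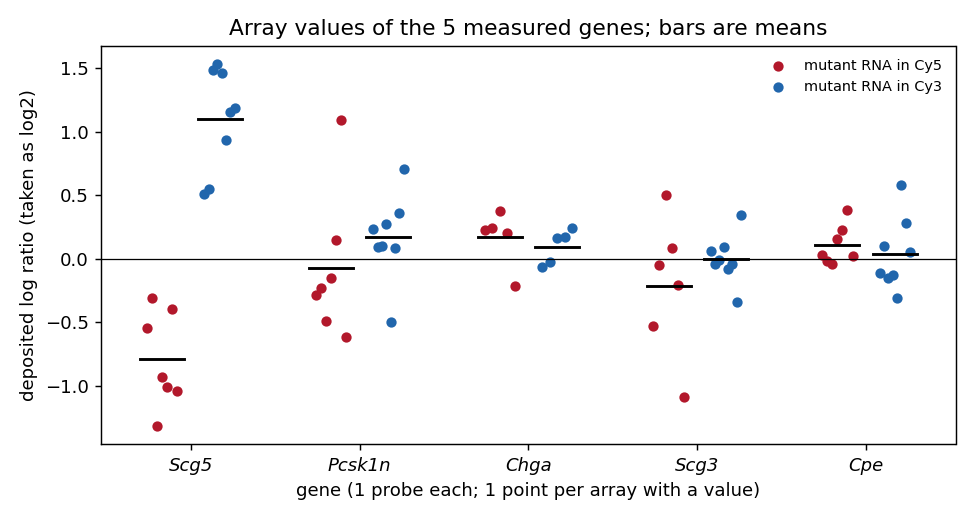
Log ratios of the 5 measured genes are plotted with 1 point per array, red with mutant RNA in Cy5 and blue with it in Cy3, and black bars at the mean of each orientation. The red and blue points are apart for Scg5, with means of -0.79 and 1.10, and overlap for Pcsk1n, Chga, Scg3 and Cpe.

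Apart from Scg5, 0 of 4 measured members passed the threshold in the dye-switching component by limma, and 0 of 4 had an unadjusted p under 0.05, a level that 9.57% of all tested probes reached. Robust regression also called 0 of the 4. Their components had a median of -0.04, beside 0.01 over all tested probes, and 2 of 4 were below 0. In the shared component 0 of 5 members passed, at a background of 0%, and 0 of 5 had an unadjusted p under 0.05, beside 9.49% of all tested probes. The shared components of 4 of the 5 were above 0, with a median of 0.08 beside 0.00 over all tested probes. That count includes Pcsk1n, which was below 0 without array 10 (-0.05), without arrays 9 and 10 (-0.09), with array weights (-0.02) and with robust regression (-0.01). In the main fit, the largest difference that the dye-switching confidence intervals of the 4 genes other than Scg5 allow was 1.28-fold for Pcsk1n and 1.25-fold for Scg3. It was 1.15-fold for Chga and 1.13-fold for Cpe. These limits hold for that fit alone and rest on the spread among arrays, not animals. Without arrays 9 and 10 the Pcsk1n component was -0.26 ± 0.08 (SE), and without array 5 that of Scg3 was -0.18 ± 0.09 (SE), both larger in size.

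**Figure D3:**
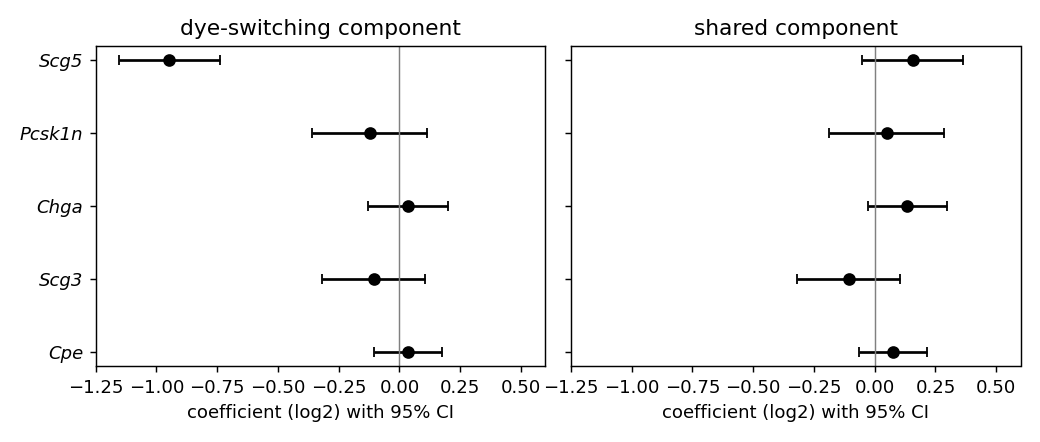
Points are the dye-switching (left) and shared (right) component of each gene on the log2 scale, with bars for the 95% confidence interval. Scg5 lies at -0.95 on the left, where its bar is a description without a test, and the intervals of Pcsk1n, Chga, Scg3 and Cpe include 0 in both panels.

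**Figure D4:**
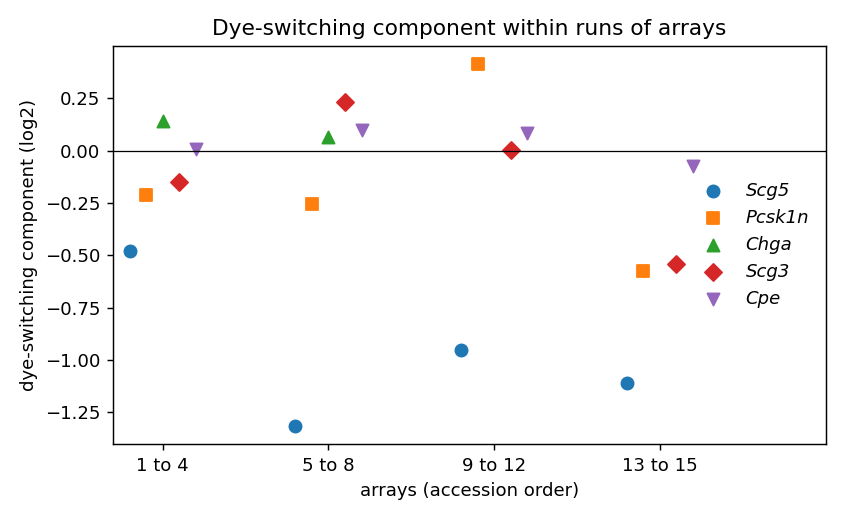
Dye-switching components on the log2 scale are plotted within arrays 1 to 4, 5 to 8, 9 to 12 and 13 to 15, with 1 marker per gene and run. Scg5 stays between -1.32 and -0.48, Pcsk1n lies at 0.41 in arrays 9 to 12 and below 0 in the others, and Chga has a value in the first pair of runs alone.

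As a description of likeness, the array values of each tested probe were correlated with those of Scg5 over the arrays that both had, for 6975 probes with at least 12 such arrays. For the measured relatives the Pearson correlation with Scg5 was 0.33 for Pcsk1n (15 arrays), 0.22 for Scg3 (14 arrays), -0.06 for Chga (10 arrays) and -0.21 for Cpe (15 arrays). Over all probes compared, the middle 90% lay between -0.52 and 0.54. The most alike genes were Tspan17 (0.94), Nt5c2 (0.91), Ccl27a (0.91), Neat1 (0.90) and Pnliprp1 (0.88), each over 15 arrays. The most opposite were Gatad2a (-0.96, 13 arrays), Dclk1 (-0.91, 13 arrays), Capn3 (-0.90), Capn5 (-0.89) and Yeats4 (-0.87), the last 3 over 15 arrays. Of these 10 genes 9 were past the threshold in the dye-switching component, a contrast computed from the same array values; Capn5 was not (0.15, limma adjusted p = 0.282).

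The wider pathway was described through gene lists. Of 30 other convertases and peptide finishing enzymes, 8 genes were tested on 9 probes. In both components 0 of the 9 passed the threshold by limma, and 0 had an unadjusted p under 0.05. The median dye-switching component was 0.00. It ran from -0.40 ± 0.50 (SE) for Dpp7, a dipeptidyl peptidase of lysosomes and vesicles, to 0.14 ± 0.27 for 1 probe of Ide, the insulin-degrading enzyme, whose other probe was at -0.08. Furin, the convertase of the Golgi that also cuts the 7B2 precursor, was at 0.10 ± 0.11. In the shared component the list ran from -0.23 for the same Ide probe to 0.11 for Ctsd, the lysosomal protease cathepsin D, with a median of -0.10.

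Of 57 prohormone and neuropeptide genes, substrates of this pathway or other secreted peptides, 7 were tested, each on 1 probe. By limma 0 passed in either component, and 1 of 7 had an unadjusted p under 0.05 in each. Over all tested probes these shares were 9.57% dye-switching and 9.49% shared. In the dye-switching component the gene was Pomc, the precursor of melanocortins and endorphin, at -0.26 ± 0.12 (SE), unadjusted p = 0.0380 and limma adjusted p = 0.491. It lay on the same turned side as Scg5 on 13 of 15 arrays. The same count of 13 of 15 arrays on 1 side was found at unlike limma adjusted p, 0.0276 for the neuronal marker Thy1 and 0.448 for Pik3r1, a gene outside the lists. Nothing is read from this count. The lowest value was that of Cck, the cholecystokinin gene, at -0.31 ± 0.21 (adjusted p = 0.693). The highest was that of Pmch, the precursor of melanin-concentrating hormone, at 0.10 ± 0.18 (adjusted p = 0.899). Pmch was also lowest in the shared component, at -0.45 ± 0.18 on 8 arrays (limma adjusted p = 0.511), where Tac2, the neurokinin B gene, was highest at 0.17. The list medians were 0.05 dye-switching and 0.05 shared.

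For dense-core vesicle assembly and release, 13 of 60 genes were tested on 16 probes, and by limma 0 probes passed in either component. In the dye-switching component 2 of 16 probes had an unadjusted p under 0.05, beside 9.57% of all tested probes, and both were negative. One was Cplx1, a complexin that clamps the release machinery, the lowest of the list at -0.28 ± 0.09 (SE), limma adjusted p = 0.215. The other was 1 probe of Sorl1, a sorting receptor, at -0.17 ± 0.07 (adjusted p = 0.475). The other Sorl1 probe lay on the opposite side at 0.34 ± 0.17, so its probes disagreed. Rab3b, a GTPase of regulated release, was highest at 0.57 ± 0.36 (adjusted p = 0.662). The median was -0.01, and in the shared component 0.00, from -0.25 for Ica1 to 0.36 for the second Sorl1 probe.

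Regulators known for granule genes or secretory cells were listed with earlier results of these data known, so counts of calls are a description. Of the 23 listed, 5 were tested and 1 passed by limma, beside 0.645% of all tested probes. That was Xbp1, the transcription factor of the unfolded protein response, on the side opposite to Scg5 at 0.93 ± 0.07 (SE), limma adjusted p = 2.02e-06, on 15 of 15 arrays. With 1 value per run of 4 arrays its limma adjusted p was 0.0863. Rcor1, a corepressor that works with the neuronal gene repressor REST, was lowest at -0.23 ± 0.10 (adjusted p = 0.506). The other 3 tested, Jun, Crem and Crtc1, lay between 0.06 and 0.15. In the shared component 0 of 5 passed by limma. An unadjusted p under 0.05 was reached by 3 of the 5, beside 9.49% of all tested probes. These were Crtc1 at 0.28 (adjusted p = 0.337), Jun at 0.23 and Crem at -0.38. The list medians were 0.11 and 0.03.

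**Figure D5:**
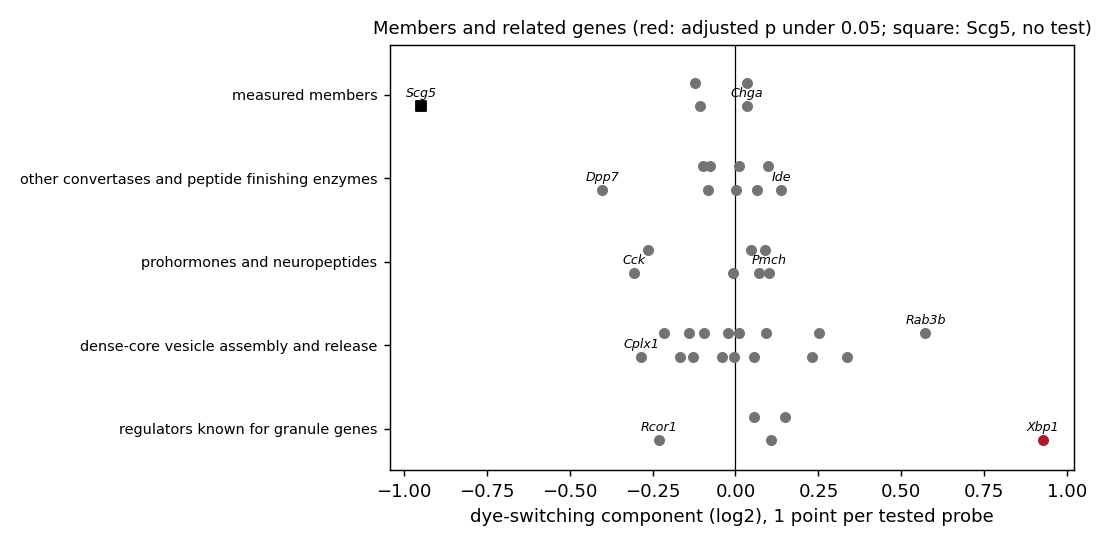
Each point is the dye-switching component on the log2 scale of 1 tested probe, in the measured members and 4 lists of related genes, with the outermost genes of each row named. Xbp1 at 0.93 is the 1 red point past the threshold, Scg5 at -0.95 is drawn as a square because it has no test, and all other probes lie between -0.40 and 0.57.

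Markers of the cell types that express these genes were looked at beside Scg5. These lists too were chosen with earlier results of these data known, so counts of calls are a description. Of 12 neuronal markers 7 were tested, and 1 of 7 probes passed the threshold, beside 0.645% of all tested probes. It was the surface glycoprotein gene Thy1 at -0.53 ± 0.11 (SE), limma adjusted p = 0.0276. That call was lost when array 1, 2, 3, 4, 9, 11 or 12 was left out, with limma adjusted p between 0.0505 and 0.0622. It was also lost without arrays 9 and 10 (limma adjusted p = 0.0854) and without arrays 1 to 4 (0.235). With 1 value per run of 4 arrays the limma adjusted p of Thy1 was 0.755. Of the 28 alternatives, 17 kept the call. Gap43, a growth cone protein gene of neurons, was at -0.19 ± 0.07 (adjusted p = 0.350). The highest was Map2, a microtubule protein gene of dendrites, at 0.09. The neuronal list had 3 of 7 components below 0 and a median of 0.01. Of 9 pituitary markers 3 were tested, Pomc at -0.26, Gh at 0.03 and Prl at 0.38 ± 0.19 (limma adjusted p = 0.542), and 0 passed. Of 9 hypothalamic markers 4 were tested and 0 passed, with a median of 0.04. Of 9 astrocyte, 8 oligodendrocyte, 8 microglia and 6 endothelial markers, 3, 1, 2 and 1 genes were tested and 0 probes passed by limma. An unadjusted p under 0.05, which 9.57% of all tested probes reached, was found for 2 of these probes. One was a probe of Glul, the glutamine synthetase gene of astrocytes, on the side opposite to Scg5 at 0.46 ± 0.18 (SE; unadjusted p = 0.0226, limma adjusted p = 0.421), whose other probe was at -0.01. The other was a probe of the myelin gene Mbp, on the same side as Scg5 at -0.22 ± 0.09 (unadjusted p = 0.0220, limma adjusted p = 0.419), whose other probe was at -0.03. S100b was lowest among astrocyte markers at -0.15, the microglial genes C1qb and Tyrobp were at -0.05 and 0.00, and the 2 probes of endothelial Flt1 were at -0.14 and 0.04. Of 5 choroid plexus markers 0 were tested. Log ratios give no level, so these values do not show how much of any cell type the RNA held, and their part in the Scg5 result was not tested.

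The nearest tested genes around Scg5 on chromosome 2 did not pass the limma threshold, which 0.645% of all tested probes passed. This does not show that they were unchanged. The 5 nearest tested genes on each side lay between 7 and 138 genes away in the order of the reference annotation. Their dye-switching components ran from -0.39 ± 0.12 (SE) for Rcn1, a calcium-binding protein gene of the endoplasmic reticulum (limma adjusted p = 0.238), to 0.20 ± 0.06 for Ivd, a mitochondrial enzyme gene of leucine breakdown (adjusted p = 0.189).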

How the data were processed

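Each array has 1 deposited log ratio for a measured probe, read here on the log2 scale. Its base and direction are not given in the sources used here. Base 2 was taken because the largest value in size, 12.3, exceeds the natural log of the largest ratio of a 16-bit scanner, 11.1. That bound holds only if no intensity lay below 1, which is not known here. Base 2 therefore remains an assumption, and all folds rest on it. Column medians from -0.00618 to 0.0165 show that arrays were centred, and missing values that spots were filtered, by rules not given in the sources used here. Probes were named through the platform annotation, with symbols updated by gene identifier to GRCm38.p6.

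Values were used as deposited. Probes measured on 4 or more arrays in both dye orientations were fitted in limma 3.58.1 (R 4.3.3) with a dye orientation term, eBayes and Benjamini-Hochberg adjustment over all 8058 probes at 0.05. The model was tested on simulated data. Members and lists were chosen with earlier results of these data known. Named genes were all members, genes past the threshold and the extremes of each pathway list, the 5 most and least like Scg5, and 5 neighbours a side. Marker genes, Furin, Pomc, Pik3r1, Sorl1, Jun, Crem and Crtc1 were added after their values were seen where not extremes. Alternatives were centring, scaling, filters, weights, variance models, limited values, gene means, omitted arrays and runs of 4 arrays. Nothing ties arrays to animals, so a p-value reflects array-to-array spread that may be technical, and the number of arrays limits precision. Figures used matplotlib 3.10.9.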

Additional observations from a re-analysis of the deposited data

Results flagged for a closer look

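Within each dye orientation, 10 sets of member values were checked for a single array far from the others, and 1 was found, where chance gives about 1 in 20. Chga stood at -0.215 on array 9 with mutant RNA in Cy5, where the next lowest of the 5 values was 0.208.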

How the results depend on the processing

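The Scg5 dye-switching component ran from -1.12 without arrays 1 to 4 to -0.90 without array 5 over the 28 alternatives run. Its sign was kept in all 28, which is no support, since Scg5 was chosen for this value and every array lay on that side. It moved in each by less than the SD between single arrays, 0.39, a wide limit beside its SE of 0.10. For the other 4 members 0 passed under any alternative run, and for the shared component 0 of 5. The dye-switching sign of Pcsk1n, Chga and Scg3 was kept in all alternatives that gave a value, and that of Cpe in 27 of 28. In the shared component Pcsk1n kept its sign in 25 of 29. The background count of 52 probes in the dye-switching component was 36 to 49 with 1 array left out, 33 without arrays 1 to 4, 34 with the mean of the probes of a gene, 2 with 1 value per run of 4 arrays, 204 with robust regression and 0 with a variance trend and robust eBayes. That trend followed the mean size of the log ratio, which is itself large at probes with a large component. Under that variance trend Xbp1 and Thy1 both had an adjusted p of 0.563 and the SE of Scg5 was 0.41. The shared count rose from 0 to 107 with robust regression; the cause was not tested. No paired analysis was possible because the labels give no replicate numbers shared by the 2 dye orientations. With values on 10 arrays, Chga had no value with at least 6 arrays per orientation, with 1 value per run of 4 arrays or without arrays 1 to 4. Its dye-switching sign was therefore compared in 25 alternatives.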

Other observations

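Deviations of Scg5 from its orientation means were compared with those of 6975 probes, as a description. The most alike genes were Cox14 (Pearson correlation 0.84), Mtrex (0.84), Gas1 (0.80), Cplx1 (0.80) and Afp (0.77), and the most opposite were Actl7a (-0.85), Tmod4 (-0.78), Capn5 (-0.77), Hspa1a (-0.76) and Gatad2a (-0.75), over 12 to 15 arrays each. The middle 90% of all probes lay between -0.47 and 0.49, and the measured relatives within it, at 0.22 for Pcsk1n, 0.37 for Chga, -0.11 for Scg3 and -0.17 for Cpe.

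Array 10, the array with the widest spread, held the highest Pcsk1n value of all 15 arrays (1.09), the highest Cpe value among arrays with mutant RNA in Cy5 (0.38) and the single Chgb value (-1.48).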
